A study of Mus musculus with 4 samples.

Results

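Oral vancomycin was compared with oral PBS in the fecal bacteria of mice at day 4. The libraries were chosen by the deposited sample sheets as those of day 4, given by mouth (PO) and marked Vancomycin, which holds for 6 libraries, against the 5 libraries marked PBS with the same day and route, out of 198 libraries in all and 91 of day 4. The vancomycin mice were C57BL6/J animals of 8 to 12 weeks on standard chow that received 2.5 mg of vancomycin in 100 µl of PBS by gavage, with 2 doses a day on 3 days and a last dose on day 4. The PBS mice were of the same strain and age and received 100 µl of PBS on the same schedule. Day 0 libraries of the same 6 vancomycin mice and of 6 PBS mice were used as each mouse's own baseline, and 5 of these PBS mice had a day 4 library in the comparison. The measure was the percent of reads of the V4 stretch of the bacterial 16S rRNA gene, which is amplified to identify bacteria by their sequence, that each named taxon took in a library.

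Vancomycin is a glycopeptide that binds the D-alanyl-D-alanine end of cell wall precursors and so blocks wall synthesis. The drug is large, is poorly absorbed from the gut and crosses the outer membrane of Gram-negative bacteria badly. Gut Bacteroidota such as the Muribaculaceae and Prevotella are Gram-negative anaerobes that break down plant and mucus glycans, and Clostridia such as the Lachnospiraceae and Oscillospiraceae are anaerobes that include many makers of short-chain fatty acids. Escherichia is a Gram-negative genus of facultative anaerobes, and many lactobacilli are known to end their wall precursors in D-lactate, which vancomycin binds poorly.

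Depth, recovered from the steps of the scaled values, was 19732, 11228, 20443, 1151, 19287 and 2974 reads in vancomycin replicates 1 to 6, against 45141, 18152, 44692, 64482 and 38465 reads in PBS replicates 1 to 5. Only PBS replicate 2 lay within the depth range of the vancomycin libraries, and the other PBS libraries were deeper than all of them. Vancomycin replicates 4 and 6 were the shallowest. In vancomycin replicate 4 a taxon at 0 may have lain at up to 0.261% of reads (the limit that 3 reads set), against at most 0.101% in each of the other vancomycin libraries and 0.0165% in each PBS library. Such limits reflect counting error alone, as reads copied by PCR are not separate molecules. All 11 libraries came from sequencing run ok122, so the run does not separate the groups. The labels name a pair of extraction kits, and neither the kit nor the cage of a mouse is known here. Sample names mark separate mice, and 0 of the 25 pairs of libraries within these groups were alike to within sampling noise.

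The families that filled the stool of PBS mice were nearly gone in vancomycin mice. Muribaculaceae made up 0.157, 1.94, 0.088, 0, 0.373 and 0.471% of reads in vancomycin mice, against 61.8, 76.0, 61.9, 59.6 and 43.8% in PBS mice. Bacteroidaceae, here almost all Prevotella, made up 0 to 0.419% in vancomycin mice against 10.4 to 30.8% in PBS mice, and Lachnospiraceae 0 to 0.140% against 1.73 to 18.1%. Enterobacteriaceae_A, the family of Escherichia, made up 63.0, 68.8, 36.9, 36.5, 55.2 and 34.0% of reads in vancomycin mice, against 0, 0, 0.345, 0 and 0.0858% in PBS mice. Borkfalkiaceae, a family of Clostridia, made up 5.13 to 45.6% in vancomycin mice against 0 to 0.231% in PBS mice. For each of these families no vancomycin mouse reached the range of the PBS mice.

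By phylum, Proteobacteria averaged 58.2% ± 8.72 (SD, n = 6) of reads in vancomycin mice and 0.189% ± 0.140 (SD, n = 5) in PBS mice. Bacteroidota averaged 0.7101% ± 0.9105 in vancomycin mice and 85.4% ± 10.98 in PBS mice. Firmicutes_A, the phylum that holds the Clostridia, averaged 33.8% ± 8.58 in vancomycin mice and 13.5% ± 10.7 in PBS mice, with 2 of 6 vancomycin mice within the PBS range. Within this phylum, Lachnospiraceae averaged 0.0492% ± 0.0532 in vancomycin mice and 9.08% ± 8.11 in PBS mice, while Borkfalkiaceae averaged 29.0% ± 14.4 in vancomycin mice and 0.136% ± 0.0868 in PBS mice. Shares of reads sum to a fixed total, so a rise of some taxa and a fall of others cannot be told apart from these data, and no measure of bacterial load was used here.

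**Figure D1:**
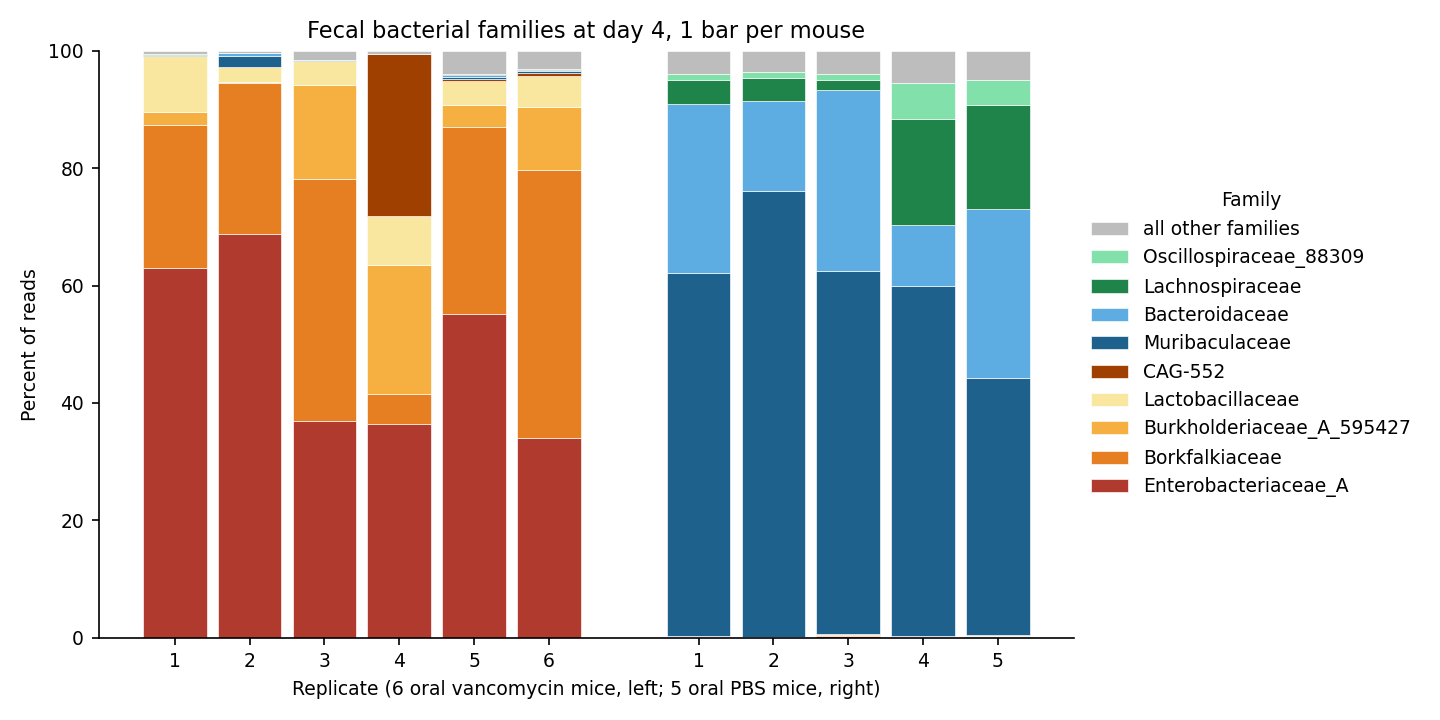
Percent of reads by family at day 4, with 1 stacked bar per mouse, the 6 oral vancomycin mice on the left and the 5 oral PBS mice on the right. Enterobacteriaceae_A and Borkfalkiaceae fill most of each vancomycin bar except that of replicate 4, where CAG-552 holds 27.5%, and Muribaculaceae fill 43.8 to 76.0% of each PBS bar.

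In the fit over all day 4 samples, limma called 25 of 39 families (64.1%), 7 higher and 18 lower in vancomycin mice, at an adjusted p below 0.05. Changes are given as log2 of percent + 0.01, a scale that understates the change of rare taxa. Enterobacteriaceae_A rose by 10.52 (SE 1.65, adjusted p = 1.3e-07), Borkfalkiaceae by 7.92 (SE 1.61, adjusted p = 1.31e-05) and Lactobacillaceae by 6.40 (SE 1.10, adjusted p = 7.65e-07). Muribaculaceae fell by 8.24 (SE 1.24, adjusted p = 7.37e-08). The change was -7.66 for Bacteroidaceae, -7.34 for Lachnospiraceae, -7.17 for Oscillospiraceae_88309 and -6.42 for Rikenellaceae. Staphylococcaceae, whose genus Staphylococcus is common on skin and is on the list of reagent, skin and food genera, was the family called higher at the lowest level. It lay at 0.101, 0, 0.00978, 0, 0.083 and 0.202% in vancomycin mice and was listed at 0 in each PBS mouse (adjusted p = 0.0170).

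**Figure D2:**
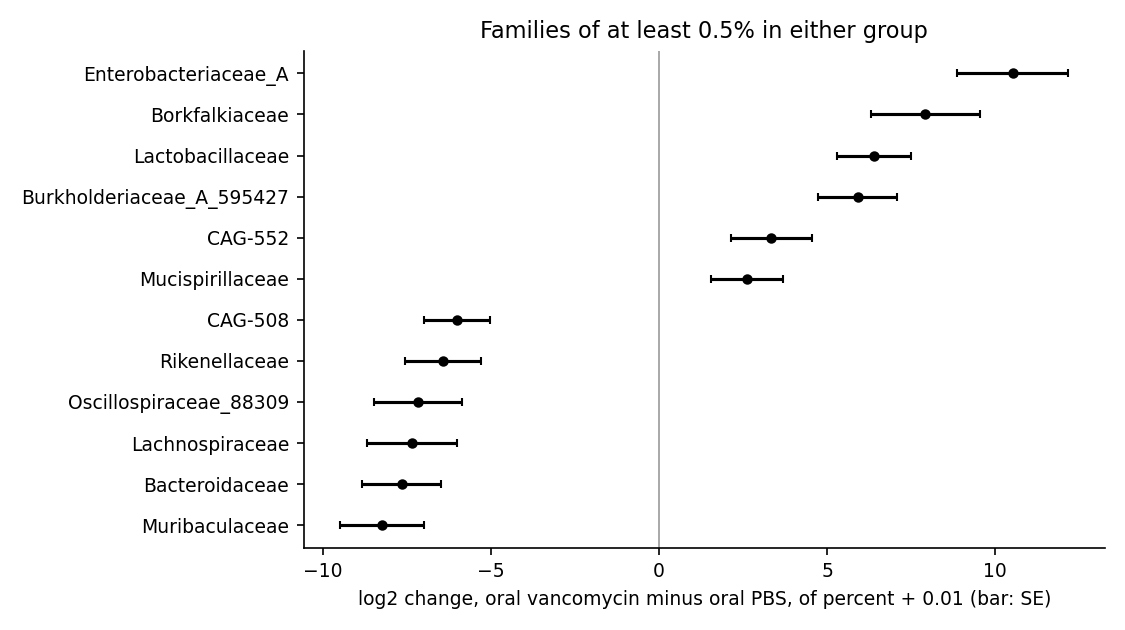
Change of each family that averaged at least 0.5% in either group, as the log2 difference of percent + 0.01, oral vancomycin minus oral PBS, with its standard error from limma. The families lie at 2.61 or above or at -6.00 or below; CAG-508 was listed at 0 in all vancomycin mice, so its value depends on the added 0.01.

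At genus level 63 of 95 genera (66.3%) were called, 7 higher (7.37%) and 56 lower (58.9%), and the median of all genera was -1.96. When each library was centred on its own mean log value instead, 45 genera were called, 22 higher and 23 lower. The median of all genera was then 0.25. Centring adds the same amount to the change of every genus, so a genus listed at 0 in all vancomycin mice can be called higher. Each of the 18 genera named here kept its direction under that scaling. The table taxa, which reach species where a name was given, were called in like proportion, 87 of 133 (65.4%), 7 higher and 80 lower.

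Escherichia (Escherichia_710834 in the table) led in 4 of 6 vancomycin mice. It made up 63.0, 68.6, 36.9, 36.5, 55.2 and 34.0% of reads in vancomycin mice, against 0, 0, 0.333, 0 and 0.0858% in PBS mice. All vancomycin mice lay above all PBS mice. The log2 change was 10.53 (SE 1.56, adjusted p = 8.43e-08). All of its reads lay in 1 taxon with no species assigned, so the table does not tell commensal from pathogenic strains. The family held little else: another Enterobacteriaceae_A taxon with no genus was at 0.196% in vancomycin replicate 2 and at 0.0112% in PBS replicate 3, and listed at 0 in the other mice.

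Borkfalkia, a genus of Clostridia, made up 23.7, 25.7, 41.4, 5.13, 31.9 and 45.6% of reads in vancomycin mice, against 0.122, 0, 0.183, 0.144 and 0.231% in PBS mice. It led in vancomycin replicates 3 and 6 and was lowest in replicate 4, and the groups did not overlap. The log2 change was 7.92 (SE 1.60, adjusted p = 1.62e-05). An unclassified genus of the family CAG-552, also of the Clostridia, was at 0, 0.0534, 0.0685, 27.5, 0.337 and 0.471% in vancomycin mice, against 0, 0, 0.0224, 0.0202 and 0.0780% in PBS mice. It was the second genus of vancomycin replicate 4, the mouse with the lowest share of Borkfalkia, and 3 of 6 vancomycin mice lay above all PBS mice. Its log2 change was 3.34 (SE 1.199, adjusted p = 0.0122), which without vancomycin replicate 4 was 1.98 (adjusted p = 0.123). Borkfalkia and CAG-552 together held 23.7, 25.7, 41.4, 32.7, 32.2 and 46.1% in vancomycin mice, against 0 to 0.309% in PBS mice. The range of the sum over vancomycin mice was narrower than that of either genus, which rested on replicate 4, a library of 1151 reads. In the other vancomycin mice Borkfalkia alone ran from 23.7 to 45.6% and the sum from 23.7 to 46.1%.

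Parasutterella, a genus of asaccharolytic anaerobes of the Proteobacteria that the table places in Burkholderiaceae_A_595427, made up 2.37, 0.187, 15.9, 21.9, 3.67 and 10.8% in vancomycin mice, against 0.0775, 0.0992, 0.0492, 0.0403 and 0.0572% in PBS mice. All vancomycin mice lay above all PBS mice, replicate 2 by the smallest margin (log2 change 5.91, SE 1.17, adjusted p = 1.17e-05). It consisted of a pair of table taxa whose balance varied between mice. The species sp009767915 was at 0.0862, 0.0267, 12.3, 17.3, 0.565 and 2.93% in vancomycin mice, against 0.0775, 0.0606, 0.0336, 0.0233 and 0.0442% in PBS mice. The taxon with no species assigned was at 2.29, 0.160, 3.58, 4.605, 3.10 and 7.87% in vancomycin mice, against 0, 0.0386, 0.0157, 0.0171 and 0.0130% in PBS mice. Sp009767915 thus held 77.5 and 79.0% of the genus in vancomycin replicates 3 and 4 and 3.63 to 27.1% in the other vancomycin mice, against 57.7 to 100% in PBS mice. Both taxa were called higher, by 4.25 (adjusted p = 0.000794) and 6.61 (adjusted p = 1.67e-06), although sp009767915 in vancomycin replicate 2 lay within the PBS range.

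Ligilactobacillus, a genus of lactic acid bacteria, made up 9.39, 2.40, 4.10, 8.34, 4.2 and 5.25% in vancomycin mice, against 0.0332, 0.0220, 0.0403, 0.0884 and 0.0390% in PBS mice. The groups did not overlap. The log2 change was 6.65 (SE 1.001, adjusted p = 8.81e-08). Lactobacillus was listed at 0 in all vancomycin mice and in 4 of 5 PBS mice, with 3.65% at day 0 in the mouse of vancomycin replicate 6. Limosilactobacillus was at 0.0557, 0.0534 and 0.00978% in vancomycin replicates 1 to 3 and listed at 0 in the other 3 (adjusted p = 0.149).

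The remaining genera called higher were minor. Mucispirillum schaedleri, a mucus-dwelling bacterium of the Deferribacterota, was at 0.0304, 0, 1.28, 0, 0.436 and 2.39% in vancomycin mice, against 0.0222, 0, 0.00895, 0.0140 and 0.0234% in PBS mice (log2 change 2.61, SE 1.07, adjusted p = 0.0261). The call was lost without vancomycin replicate 3, 5 or 6 or PBS replicate 2, with changes of 1.96, 2.26, 1.78 and 2.33. Akkermansia, a mucin degrader, was at 2.67% in vancomycin replicate 5 and at 0.0267% in replicate 2, and was listed at 0 in the other vancomycin mice, against 0 to 0.0992% in PBS mice. It was not called (adjusted p = 0.892), and its change took the opposite sign, -1.02, without vancomycin replicate 5.

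Desulfovibrio_R_446353, a genus of sulfate reducers, differed in its taxa. The genus was at 0.329, 0.0980, 0.137, 0.608, 0.482 and 0.504% in vancomycin mice, against 0.0244, 0.0441, 0.0269, 0.62498 and 0.0806% in PBS mice, and was called higher (log2 change 1.89, SE 0.76, adjusted p = 0.0255). PBS replicate 4 lay above all vancomycin mice. The call was lost on leaving out any of vancomycin replicates 4 to 6 or PBS replicates 1 to 3, with changes of 1.57 to 1.75. Every read of the genus in vancomycin mice lay in a taxon with no species assigned, which was listed at 0 in PBS replicates 1 to 3 and was at 0.0109 and 0.0182% in PBS replicates 4 and 5. It was present in too few day 4 samples to be tested. The species trichonymphae was listed at 0 in all vancomycin mice, against 0.0244, 0.0441, 0.0269, 0.614 and 0.0624% in PBS mice, at least 38.5-fold lower by the limit that 3 reads set over the pooled vancomycin libraries (adjusted p = 0.00033). That bound rests on PBS replicate 4, and without it was at least 9.83-fold. At day 0 the same vancomycin mice had carried trichonymphae in 5 of 6 libraries, at 0.147 to 0.649%, and the unassigned taxon in none.

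**Figure D3:**
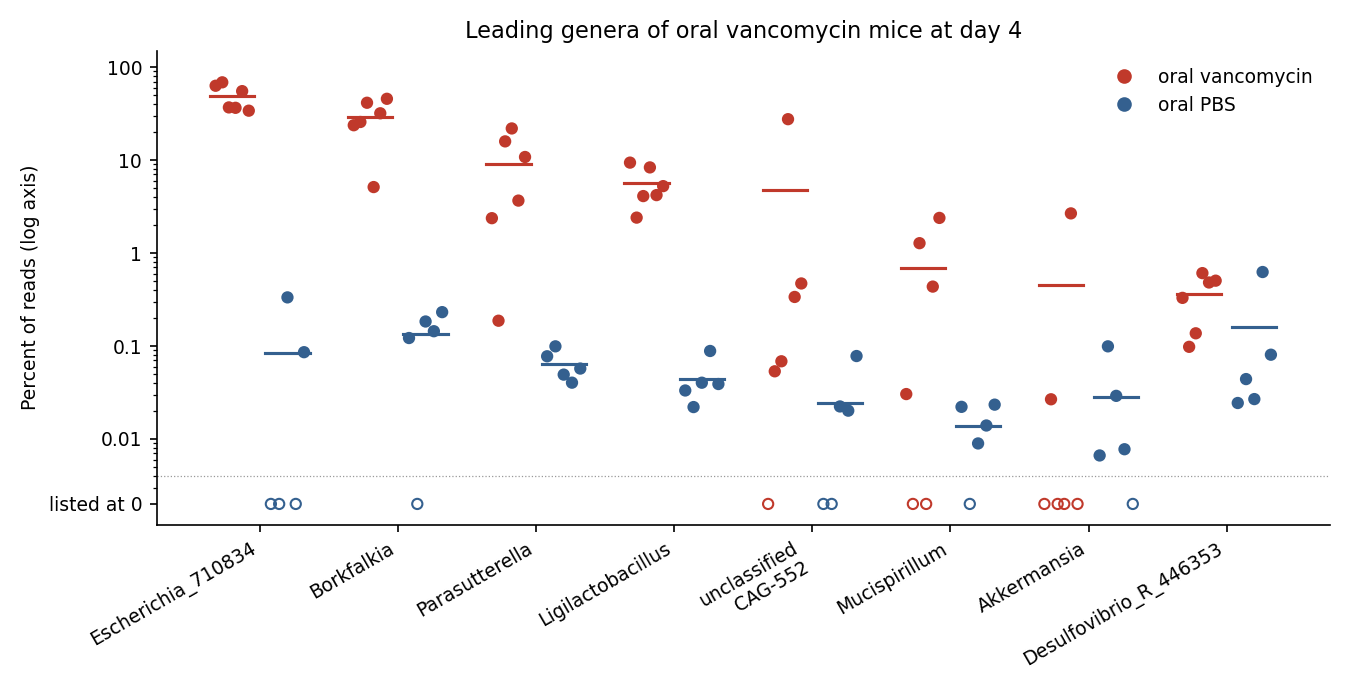
Percent of reads at day 4, on a log axis, of the 8 genera with the highest means in oral vancomycin mice, with 1 point per mouse, oral vancomycin left of oral PBS for each genus, and horizontal lines at the means. Open points below the dotted line are libraries in which the genus was listed at 0; Escherichia, Borkfalkia, Parasutterella and Ligilactobacillus do not overlap between the groups.

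The points of percent that each vancomycin mouse gained over the PBS mean were divided among the genera that gained them, as a description. Gains summed to 97.0 to 99.5 points in the 6 mice, and only 3 to 5 genera gained at least 0.5 points. Escherichia took 63.5, 70.7, 37.0, 36.6, 55.9 and 34.4% of the gain in replicates 1 to 6, and Borkfalkia 23.8, 26.4, 41.5, 5.02, 32.2 and 46.1%. Parasutterella took 0.126 to 21.9% and Ligilactobacillus 2.43 to 9.43%. These 4 genera held 95.9 to 99.6% of the gain in 5 mice and 71.9% in replicate 4, where CAG-552 held a further 27.7%. Of the points lost, Muribaculaceae accounted for 60.9%, Bacteroidaceae for 23.0% and Lachnospiraceae for 9.16% on average, shares that the common PBS mean fixes almost wholly.

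Measured against each mouse's own day 0 library, the gain was divided in nearly the same way. Escherichia took 63.6, 70.4, 37.6, 36.9, 55.6 and 35.2% of the gain. Muribaculaceae accounted for 81.7, 53.7, 32.3, 31.8, 57.3 and 69.1% of the loss, and Lachnospiraceae for 4.88 to 29.9%.

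All 8 genera of the Muribaculaceae were called lower, against 58.9% of all genera tested. Their changes were -8.51 to -7.39 with a median of -7.62, against a median of -1.96 over all genera tested. Genera that are rare in PBS mice cannot fall so far on this scale. Prevotella and the unclassified Lachnospiraceae, abundant in PBS mice and of other families, changed by -7.72 and -7.42. CAG-485 lay at 0.0253, 0.330, 0, 0, 0.0622 and 0% in vancomycin mice, against 12.7, 13.8, 12.0, 12.8 and 6.55% in PBS mice (log2 change -8.51, SE 1.44, adjusted p = 6.81e-07). Duncaniella lay at 0 to 0.481% in vancomycin mice against 9.88 to 17.4% in PBS mice, Paramuribaculum at 0 to 0.294% against 6.36 to 11.5%, and Muribaculum at 0 to 0.258% against 2.63 to 8.11%. UBA7173 lay at 0 to 0.202% in vancomycin mice against 3.55 to 7.15% in PBS mice, and UBA3263 at 0 to 0.107% against 1.94 to 4.81%. CAG-873 was listed at 0 in all vancomycin mice, against 1.03 to 2.53% in PBS mice, at least 449-fold lower. Replicate 2 kept the most Muribaculaceae, 1.94% over the family, and had the highest vancomycin value of each of the Muribaculaceae named here except UBA7173, which was highest in replicate 6, and CAG-873.

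Of 3 Bacteroidaceae genera tested, 2 were called lower, a share near the 58.9% of all genera, as is that of the next families. Prevotella, all but a trace of it sp902776665, lay at 0.0963, 0.401, 0.0587, 0, 0.140 and 0.168% in vancomycin mice, against 28.2, 15.001, 30.3, 9.54 and 28.3% in PBS mice (log2 change -7.72, SE 1.26, adjusted p = 5.41e-07). Bacteroides_H lay at 0.0778% in vancomycin replicate 5 and was listed at 0 in the other vancomycin mice, against 0.336 to 0.844% in PBS mice. Of 5 genera of the Rikenellaceae, Tannerellaceae and Marinifilaceae, 3 were called lower, with a change of -6.22 for Alistipes_A_871400. Cryptobacteroides, a genus of Bacteroidota that the table places in the family UBA932 and outside these lists, was listed at 0 in all vancomycin mice, against 0.153 to 0.421% in PBS mice, and was also called lower (adjusted p = 0.00065). Parabacteroides_B_862066, another genus of Bacteroidota, was at 0.0253, 0.0445, 0.0489, 0, 0.0622 and 0% in vancomycin mice against 0.0487, 0.0165, 0.0761, 0.0357 and 0.0494% in PBS mice, and was not called (adjusted p = 0.622).

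Of 27 Lachnospiraceae genera tested, 18 were called lower and 0 higher (median -2.30), a share lower near the 58.9% of all genera. The unclassified Lachnospiraceae lay at 0.0253% in vancomycin replicate 1, at 0.0674% in replicate 5 and at 0 in the other vancomycin mice, against 2.37, 1.03, 0.627, 11.01 and 13.4% in PBS mice (log2 change -7.42, adjusted p = 1.67e-06). The change was -4.91 for COE1, -4.42 for Eubacterium_J and -3.89 for Kineothrix. Of 64 Lachnospiraceae genera in the table, 5 were present in any vancomycin mouse and 38 in any PBS mouse, against 37 and 157 of all 316 genera. These counts used all reads of libraries of unequal depth. Of 14 Oscillospirales genera tested, 12 were called lower (median -2.63), against 58.9% of all genera, with changes of -5.68 for Dysosmobacter and -5.17 for Lawsonibacter. The order as a whole was present in 1 of 6 vancomycin mice, at 0.0445%, against 1.47 to 6.95% in all PBS mice.

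The smaller groups, apart from those described as higher, mostly lay near 0 in vancomycin mice, and their counts stand against 58.9% lower and 7.37% higher over all genera. Of 3 genera of wall-less Bacilli tested, 2 were called lower. These were UBA6985 and the unclassified UBA660, both listed at 0 in all vancomycin mice. The third, Pelethenecus, was present in 4 of 6 vancomycin mice at a mean of 0.0384%, against 0.135% in PBS mice (adjusted p = 0.367). Actinobacteriota were listed at 0 in all vancomycin mice, against 0.0291 to 0.0962% in PBS mice, and 1 of 2 genera tested was called lower. Of 4 Lactobacillales genera 1 was called higher, as was 1 of 2 lactobacilli known to resist vancomycin, 1 of 3 Desulfovibrionaceae, 1 of 1 Enterobacteriaceae, both genera of Borkfalkiaceae and CAG-552, and 0 of 1 Verrucomicrobiota. No genus of the Erysipelotrichaceae and relatives was common enough to be tested. Of the genera known from reagents, skin and food, 0 of 1 was called (Staphylococcus, whose family was called higher, was too rare to be tested as a genus), and their reads numbered 27, 8, 6, 0, 34 and 6 in vancomycin libraries, against 0, 0, 0, 5 and 0 in PBS libraries.

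Presence was also counted. Of 56 genera called lower, 41 were listed at 0 in all vancomycin mice, and in 39 all vancomycin mice lay below all PBS mice. Many genera not called, among them Streptococcus, Mailhella and Bilophila, were also listed at 0 in all vancomycin mice. A listing at 0 thus does not set apart the genera called lower. Some PBS values, such as the 0.0165 to 0.0930% of Ruminococcus_C_58660, lay under the 0.261% limit of vancomycin replicate 4. Of 7 called higher, 4 lay above all PBS mice in all vancomycin mice. The counts of genera below or above all PBS mice rest on the values that gave the calls, so they are a description and no separate test. Over all reads, with most PBS libraries deeper, 44 genera were found in every PBS mouse. Of these, 25 were found in no vancomycin mouse and 3 in every vancomycin mouse. The genera found in every vancomycin mouse numbered 5: Escherichia, Borkfalkia, Parasutterella, Ligilactobacillus and Desulfovibrio_R_446353. In 1000 reads drawn from each library, 6 to 16 genera were seen in vancomycin mice against 36 to 63 in PBS mice, with means of 11 ± 4.56 (SD, n = 6) and 47.2 ± 10.6 (SD, n = 5). Over the drawn reads of a group, 25 genera were seen in any vancomycin mouse and 94 in any PBS mouse. The difference in genera per mouse gave p = 0.00433 in a two-sided exact permutation test (adjusted p = 0.00577 over 4 such tests), the smallest p that 6 against 5 samples allow.

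The difference in the Shannon index, which rises with both the number of taxa and their evenness, depended on the rank at which taxa were counted. By genus, the Shannon index was 1.04, 0.897, 1.25, 1.45, 1.19 and 1.32 in vancomycin mice, against 2.44, 2.48, 2.33, 2.98 and 2.59 in PBS mice. The groups did not overlap, and the difference of -1.37 gave p = 0.00433 in a two-sided exact permutation test (adjusted p = 0.00577). By family, the index was 1.01, 0.845, 1.25, 1.45, 1.19 and 1.32 in vancomycin mice, against 1.08, 0.879, 1.03, 1.35 and 1.46 in PBS mice. These values overlapped throughout, and the difference was 0.0169 (exact permutation p = 0.905). Over all reads, families present averaged 13.2 in vancomycin mice and 35.8 in PBS mice, so a like index does not mean like evenness. The most abundant genus took 51.7% ± 12.7 of reads (SD, n = 6) in vancomycin mice and 23.4% ± 7.80 (SD, n = 5) in PBS mice (exact permutation p = 0.00433), while the most abundant family took 51.8% ± 12.7 in vancomycin mice and 60.6% ± 11.5 in PBS mice (difference -8.86, exact permutation p = 0.268). In PBS mice the leading family, Muribaculaceae, was divided among 8 genera, whereas each leading family of vancomycin mice was nearly all 1 genus. Counting from the most abundant, 2 to 4 genera made up 90% of reads in vancomycin mice against 8 to 18 in PBS mice.

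**Figure D4:**
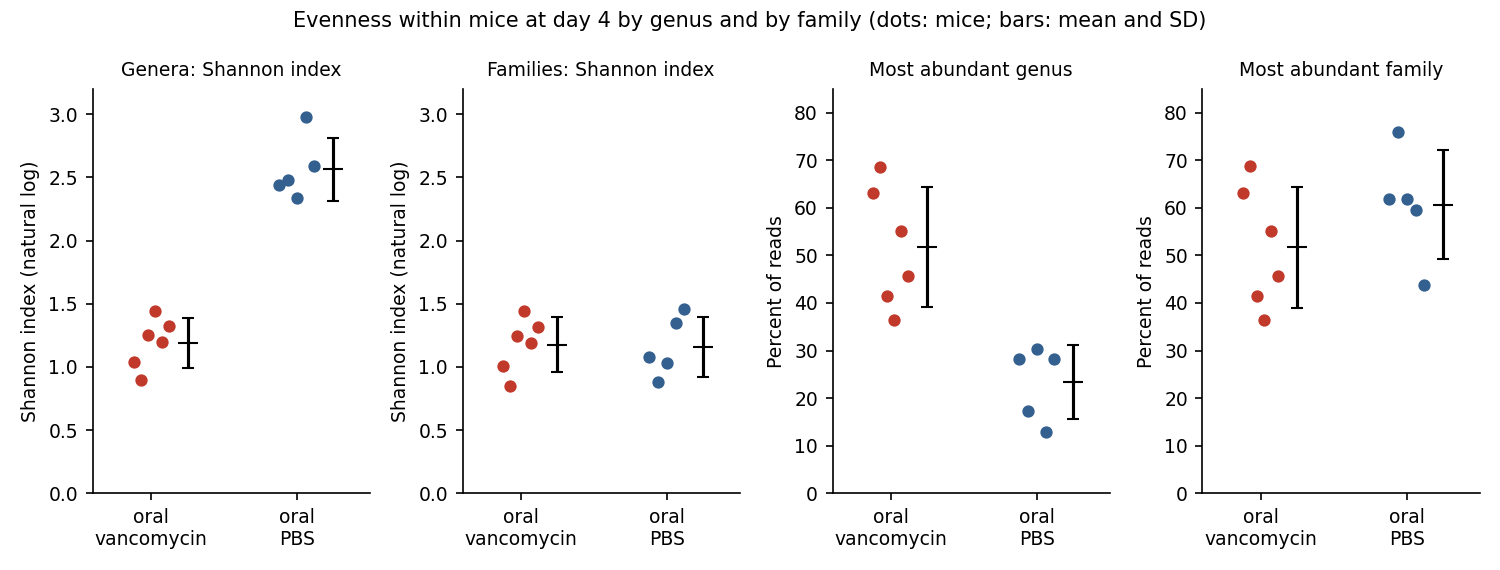
Shannon index by genus and by family, and percent of reads of the most abundant genus and family, for each mouse at day 4 (points), with group means and SD (bars), oral vancomycin left of oral PBS. The groups separate by genus, with vancomycin mice at a Shannon index of 0.897 to 1.45 and PBS mice at 2.33 to 2.98, and overlap by family.

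The spread between mice was compared next. The Bray-Curtis distance between mice, which runs from 0 for like to 1 for unlike libraries, averaged 0.312 ± 0.149 (SD, 15 pairs) in vancomycin mice and 0.245 ± 0.0726 (SD, 10 pairs) in PBS mice. A vancomycin mouse and a PBS mouse lay 0.968 to 0.998 apart. The distance of each mouse to its group's centroid was 0.174, 0.226, 0.149, 0.371, 0.134 and 0.190 in vancomycin mice, against 0.0953, 0.176, 0.113, 0.180 and 0.212 in PBS mice. Replicate 4 was the farthest vancomycin mouse. The difference in means was 0.0521 (two-sided exact permutation p = 0.264), and without vancomycin replicate 4 it was 6.4e-05. With Aitchison distance the difference took the opposite sign. Among PBS mice Muribaculaceae varied with an SD of 11.5 points, Bacteroidaceae with 9.31 and Lachnospiraceae with 8.11. Among the 4 leading genera of vancomycin mice, the closest relation across mice was that of Escherichia with Parasutterella (Pearson r = -0.88, exact permutation p = 0.0431; Spearman rho = -0.83, exact permutation p = 0.0583; n = 6). Over the 6 pairs of genera it had an adjusted p of 0.258 and 0.35, and without replicates 1 and 2, the farthest from the median of Escherichia, r was -0.74. Shares of the same total are not independent of each other.

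The groups were also compared before treatment. At day 0, 0 of 85 genera (0%) were called between the mice later given vancomycin and those later given PBS, with 6 at an unadjusted p below 0.05. That fit used all day 0 libraries of the series, at 2 to 41082 reads (median 7289). Libraries of so few reads weaken the fit, so the lack of calls does not show that the groups were alike. The Shannon index by genus was 2.64 ± 0.301 (SD, n = 6) in the vancomycin mice and 2.29 ± 0.180 (SD, n = 6) in the PBS mice at day 0 (two-sided exact permutation p = 0.0303), a difference opposite to that of day 4. Of the day 0 libraries 2 of 6 held under 1000 reads in each group, and over the 4 and 4 deeper libraries the exact permutation p was 0.0571. The change of the Shannon index from each mouse's own day 0 was -1.41, -1.74, -1.52, -1.63, -0.998 and -1.41 in vancomycin mice, against 0.269, 0.0657, -0.202, 0.896 and 0.451 in PBS mice (difference of means -1.75, exact permutation p = 0.00433). Every vancomycin mouse fell by more than any PBS mouse. The Bray-Curtis distance between the days of a mouse was 0.983 ± 0.0103 (SD, n = 6) in vancomycin mice and 0.262 ± 0.103 (SD, n = 5) in PBS mice.

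Escherichia was listed at 0 in the day 0 library of each vancomycin mouse, where 3 reads would set limits of 0.0137 to 0.432%, and pooled over these 6 libraries the limit is 0.0048%. Borkfalkia was at 0.103, 0, 0.350, 0.453, 0 and 0.228% at day 0 in the vancomycin mice. The replicate with the most of it at day 0, replicate 4, had the least at day 4. Parasutterella was at 0.0944, 0.0291 and 0.758% at day 0 in vancomycin replicates 1, 3 and 6, and Ligilactobacillus at 0.0257 and 0.0589% in replicates 1 and 6. Both were listed at 0 in the other day 0 libraries of these mice, 2 of which held under 1000 reads.

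When the change from each mouse's own day 0 was tested, 47 of 95 genera (49.5%) were called, 4 higher and 43 lower, and 44 of them were also called in the same direction at day 4. This fit drew on 89 mice of the whole series, also without a limit on day 0 depth. The 4 higher were Escherichia (10.53, adjusted p = 5.39e-08), Borkfalkia (7.38, adjusted p = 0.00286), Parasutterella (5.34, adjusted p = 0.0135) and Ligilactobacillus (5.88, adjusted p = 1.64e-05), each higher than its own day 0 in 6 of 6 vancomycin mice. CAG-552 was higher in 5 of 6 mice (2.97, adjusted p = 0.0795). Mucispirillum was not called (1.04, adjusted p = 0.628). In vancomycin mice it had been at 0.257, 1.07, 1.09, 2.84, 0 and 1.39% at day 0. It was higher at day 4 in 3 of 6 and lower in 3 of 6. In PBS replicates 1 to 5 it had been at 0, 0.743, 0.150, 0.943 and 0.0865% at day 0. It was lower at day 4 in all PBS mice but replicate 1. The day 0 libraries of PBS replicates 1 and 4 held only 457 and 318 reads. Desulfovibrio_R_446353 took the opposite sign (-1.66, adjusted p = 0.303), with 4 of 6 vancomycin mice below their own day 0. At day 0 Desulfovibrio_R_446353 had averaged 0.361% in vancomycin mice and 0.0456% in PBS mice, a difference of 3.18 (unadjusted p = 0.0118, adjusted p = 0.333 by limma).

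**Figure D5:**
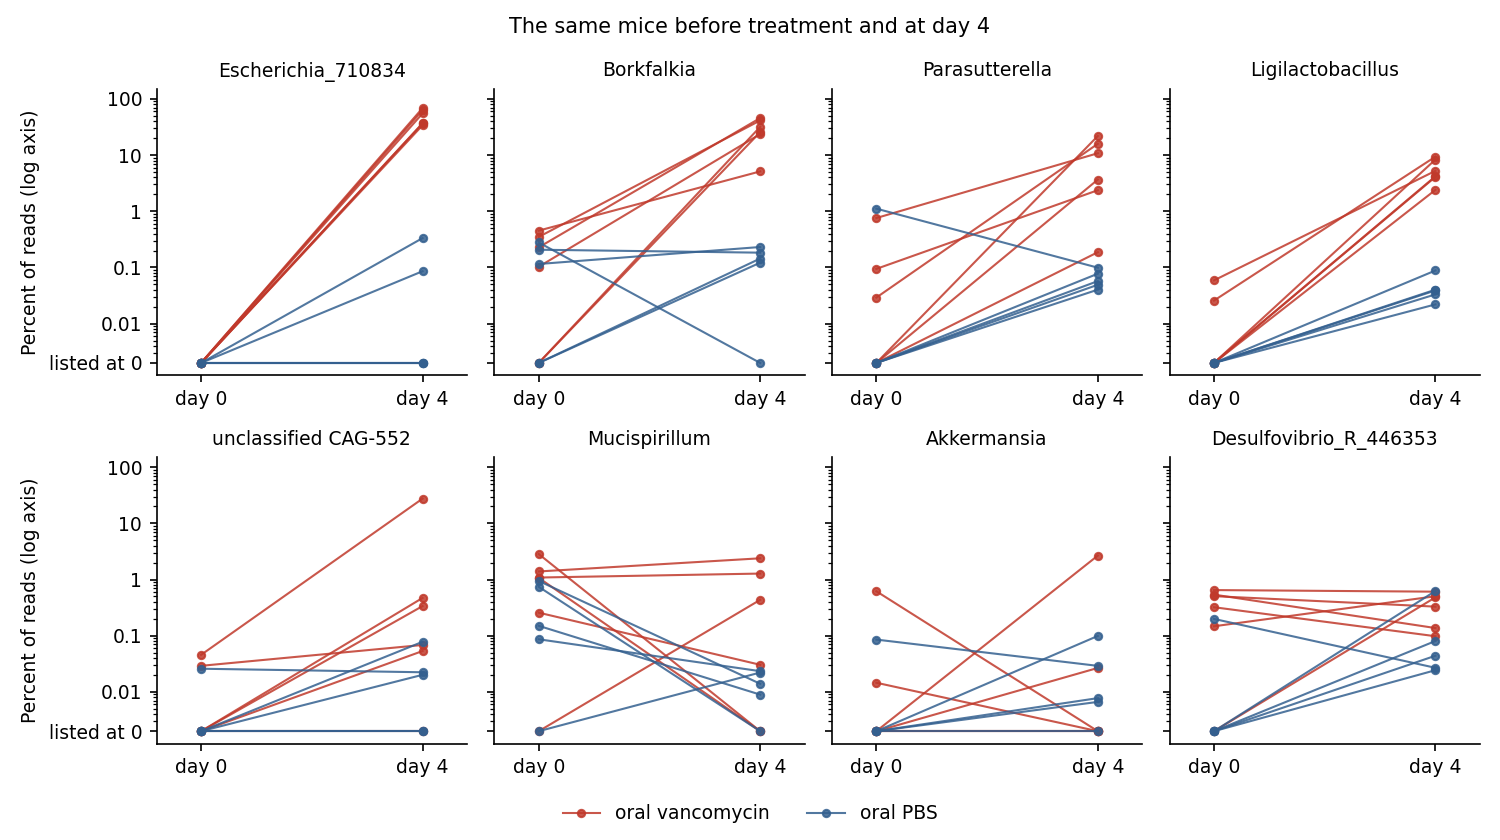
Percent of reads at day 0 and day 4, on a log axis, of the 8 leading genera of oral vancomycin mice, with 1 line per mouse for 6 oral vancomycin and 5 oral PBS mice. Lines of Escherichia, Borkfalkia, Parasutterella and Ligilactobacillus go up in each vancomycin mouse, and those of Mucispirillum and Desulfovibrio_R_446353 go both ways; points at the bottom are libraries listed at 0.

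Vancomycin was also given into a vein. The effect of vancomycin against PBS of the same route differed between the oral and the intravenous route in 9 of 95 genera (9.47%). Borkfalkia averaged 28.9% in oral and 0.382% in intravenous vancomycin mice (difference of effects 7.91, SE 2.21, adjusted p = 0.00777), and Ligilactobacillus 5.61 and 0.0421% (5.15, SE 1.38, adjusted p = 0.00553). Bacteroides_H averaged 0.0130% in oral and 17.0% in intravenous vancomycin mice (-10.52, adjusted p = 2.82e-05), and Parabacteroides_B_862066 0.0302 and 31.6% (-9.40, adjusted p = 0.000209). For Escherichia, which averaged 49.0% in oral and 16.3% in intravenous vancomycin mice, the difference of effects was not called (2.46, SE 2.15, adjusted p = 0.642). The intravenous groups held 6 mice each, 3 of each group from run SB1. With run ok122 alone, Borkfalkia and Ligilactobacillus stayed past the threshold (9.51 and 4.98), and Desulfovibrio_R_446353, at 4.25 with all libraries (adjusted p = 0.00234), was at 3.08 (adjusted p = 0.128).

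Oral ampicillin, a penicillin, offers a comparison at the same route and dose, and oral vancomycin differed from it in 10 of 95 genera (10.5%). Escherichia averaged 49.0% in vancomycin mice and 0.126% in ampicillin mice (log2 change 9.77, SE 1.56, adjusted p = 4.62e-07). Parasutterella averaged 9.13% in vancomycin mice and 0.0429% in ampicillin mice (7.33, adjusted p = 4.62e-07), and Ligilactobacillus 5.61 and 0.0127% (8.29, adjusted p = 1.44e-10). Desulfovibrio_R_446353 and Mucispirillum were also higher in vancomycin mice. Burkholderia, on the list of reagent, skin and food genera, averaged 0.0366% in vancomycin mice and 37.2% in ampicillin mice (-5.43, adjusted p = 0.00043). Pelethenecus averaged 0.0384 and 2.87% (-5.17, adjusted p = 4.8e-05), and Bifidobacterium_388775, CAG-314 and COE1 were also lower in vancomycin mice. Borkfalkia averaged 28.9% ± 14.5 (SD, n = 6) in vancomycin mice and 39.8% ± 37.5 (SD, n = 5) in ampicillin mice, where it ran from 0 to 85.2%, and was not called (2.16, adjusted p = 0.752). CAG-552 averaged 4.75% in vancomycin mice and 14.5% in ampicillin mice (-2.44, adjusted p = 0.253). None of the Muribaculaceae genera or Prevotella was called between these antibiotics, with the lowest adjusted p, 0.0936, for Muribaculum (-3.44).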

How the data were processed

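Per the labels' protocols, DNA from feces was amplified over the V4 region and sequenced on an Illumina MiSeq in 2 runs. For the denoising tool: not given in the sources used here, as for the taxonomy. The authors deposited a composition table whose signal is scaled to 100000 per library over 488 taxa at 7 ranks; empty cells were read as 0. Antibiotic, route, day and replicate came from the deposited sample sheets, and mice were paired between days by the part of the sample name before the dot. Depth was recovered because 100% of values were whole multiples of 1 step (within 0.02 reads or 1e-05 of the value); no count model was fitted. Percent was summed to 316 genera and 107 families. Taxa present in at least 20% of 89 day 4 samples were tested with limma 3.58.1 (R 4.3.3) on log2(percent + 0.01), with 1 mean per antibiotic and route, a variance trend and Benjamini-Hochberg adjustment at 0.05. Day 4 samples of other groups that differed by no more than sampling noise, 2 pairs, were averaged. Single values were compared by exact permutation (SciPy 1.17.1). Simulated data were drawn for every group as normal values with the means and SDs of PBS mice of all routes. In these, 20 of 95 genera shifted by 4 on the log2 scale were recovered 20 times with 2 false calls, and by 2, 9 times with 0. The spread of the antibiotic groups and the many values at 0 were not simulated, so these rates may not hold for the real fit. Named genera were the 10 most abundant of each group, all called higher and the 5 largest falls; named table taxa likewise, with all taxa of the genera called higher, and named families those of at least 0.5%. Staphylococcaceae, Lactobacillus, Limosilactobacillus, Bacteroides_H, Parabacteroides_B_862066, Pelethenecus and other minor genera were chosen after their values were seen. Members and lists were chosen with earlier results of these data known.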

Additional observations from a re-analysis of the deposited data

Results flagged for a closer look

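The rule used to flag single mice sets apart about 1 in 20 sets of independent, normal values. Many values here were skewed or 0 and several sets shared the same mice, so that rate does not apply. Single mice stood apart from the rest of their group in 12 of 43 sets of values examined. Among vancomycin mice these were replicate 4 with CAG-552 at 27.54%, replicate 5 with Akkermansia at 2.67%, and replicate 2 with CAG-485 at 0.3295%, unclassified Muribaculaceae at 0.4008%, Paramuribaculum at 0.2939% and Muribaculum at 0.2583%. Replicate 6 had UBA7173 at 0.2017%. Among PBS mice they were replicate 3 with Escherichia at 0.3334%, replicate 4 with Ligilactobacillus at 0.0884% and Desulfovibrio_R_446353 at 0.62498%, and replicate 5 with CAG-552 at 0.07799% and CAG-485 at its lowest, 6.549%. Vancomycin replicate 4 was also the shallowest library of the comparison, at 1151 reads, and its part in that value was not tested.

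For 3 of the genera called higher, the effect of vancomycin differed between the oral and the intravenous route by the interaction contrast of limma: by 7.915 for Borkfalkia, 5.152 for Ligilactobacillus and 4.253 for Desulfovibrio_R_446353 on the log2 scale.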

How the results depend on the processing

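Of 377 values that the 18 named genera took under other settings of the day 4 test, 354 kept their direction and their side of the threshold, 18 kept direction but not the call, and 5 took the opposite sign. The 5 were Akkermansia with 0.001 added in place of 0.01 (-0.83), against own day 0 (-0.30), without vancomycin replicate 5 (-1.02) and without PBS replicate 5 (-0.09; -1.02 to 0.77 with each mouse left out in turn), and Desulfovibrio_R_446353 against own day 0 with the mouse as a block (-1.66). The cause was not tested. By family, the difference in the Shannon index was 0.0169 and that in the most abundant taxon's share -8.86. The difference in mean distance to the centroid was -1.55 with Aitchison distance (exact permutation p = 0.203). Its sign was opposite to that of the 0.0521 with Bray-Curtis distance, so the group with the larger spread depended on the measure. The day 0 Shannon difference of 0.356 was 0.0913 by family and 0.391 over libraries of at least 1000 reads.

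Genera called numbered 39 of 44 when presence in 50% of samples was required and 38 of 59 at 1000 reads per library, where fewer genera were tested, and 52 to 62 with each mouse left out in turn. Under these first 2 settings table taxa called numbered 53 and 52, and with centred log ratios, 57 (29 higher and 28 lower). With centred log ratios 22 families were called, 9 higher and 13 lower. Under this scaling a taxon listed at 0 in all vancomycin mice can be called higher. Depth sets limits of 0.261% in vancomycin replicate 4 and of 0.101% in replicate 6. Fits restricted to run ok122, and to 0.1 added for the other routes and ampicillin, were chosen after seeing the data.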
